A study of Mus musculus with 4 samples.

Results

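Imprinted genes are expressed from the maternal or the paternal copy, and the 10 described here were chosen by name: Meg3, Rian, Mirg, Dlk1, H19, Igf2, Airn, Igf2r, Kcnq1ot1 and Peg3. All 10 are present among the 49997 gene symbols of the tables. They were followed in 4 wild-type mouse cultures of the iMOP line (immortalized multipotent otic progenitors of the inner ear), 2 proliferating and 2 differentiated into neurons. The proliferating cultures are called P1 and P2 and the neuron cultures N1 and N2, by replicate number, and pair 1 and pair 2 join the cultures of the same number. Both proliferating cultures grew in DMEM/F12 with B27, carbenicillin and basic FGF at 20 ng/ml, and both neuron cultures grew in Neurobasal medium with N21, L-glutamine and K03861, which blocks the kinase CDK2, at 1 µM. All 4 cultures come from the same immortalized line, and the libraries were made with a stranded kit from total RNA after depletion of ribosomal RNA. Such counts cannot tell the parental copies apart. Replicates are named as biological in the titles, with no statement of what separates them, so a p-value measures only the spread between these libraries.

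Imprinted genes lie in clusters in which a control region, methylated on 1 parental copy, sets which genes are transcribed. In several clusters a long noncoding RNA is made from the copy on which neighbouring coding genes are silent. In the Dlk1-Dio3 cluster the paternal copy expresses Dlk1, a membrane protein related to Notch ligands, and the maternal copy expresses the noncoding RNAs Meg3, Rian and Mirg, which carry small nucleolar RNAs and microRNAs. H19 is a maternal noncoding RNA beside Igf2, the paternally expressed growth factor. Airn is a paternal noncoding RNA that starts inside Igf2r, the receptor that removes IGF2, and runs antisense across the start of that gene. Kcnq1ot1 is a paternal noncoding RNA inside Kcnq1, and Peg3 encodes a zinc finger protein made from the paternal copy.

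The 10 genes fell into 3 ranges. Meg3, Rian, Mirg and Dlk1 were listed at 0 in all 4 libraries. H19 and Igf2 had at most 15 counts in any library. Kcnq1ot1, Igf2r and Peg3 were well covered, and Airn had 0 to 24 counts. Neurons and proliferating cells did not differ detectably for any of the 4 genes that passed the filter on low counts, and 3 of these 4 went opposite ways in pair 1 and pair 2.

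The tables hold 7446361 to 14484011 counts per library, of which 53.3% to 76.1% were 18S ribosomal RNA, leaving 2595578 to 3850766 counts. The share was higher in P2 and N2, whose titles carry the words set 2. P2 stood apart, with 17762 genes detected against 20012 to 21637 in the others. It also had the fewest counts outside 18S ribosomal RNA, 2595578. Of 5 progenitor markers Pax2 was at 0 throughout and the other 4 had a lower fitted value in neurons, 2 of them lower in both pairs. Of 9 neuron markers 8 were tested, 6 with a higher fitted value in neurons and 2 higher in both pairs, and Nefm had at most 1 count. Tubb3 and Neurod1 had a lower fitted value (log2 fold change -0.67 and -0.38). Of all 12783 tested genes, 6651 had a higher and 6132 a lower fitted value. Among these tested genes 28.8% were higher in both pairs and 25.5% lower in both. All 5 cell cycle markers had a higher fitted value in the libraries labelled neurons, against what that label would give. Their log2 fold changes were 0.010 to 0.88 (median 0.61, 0 called), and 4 were higher in both pairs. Mki67, a proliferation marker, had 1133 and 81 counts in P1 and P2 and 1408 and 459 in N1 and N2. Levels are given as CPM, counts scaled to a common library size after TMM adjustment, a factor that aligns the libraries on the bulk of their genes.

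The promoters of 3 noncoding RNAs are shown first because their genes span the range found, from 0 counts to the most counts of the 10. Each stretch is the 250 bases before an annotated start, from RefSeq on GRCm38.p6, written 5′ to 3′ on the gene's strand with CpG dinucleotides in capitals.

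Meg3, chr12:109540746-109540995 (+): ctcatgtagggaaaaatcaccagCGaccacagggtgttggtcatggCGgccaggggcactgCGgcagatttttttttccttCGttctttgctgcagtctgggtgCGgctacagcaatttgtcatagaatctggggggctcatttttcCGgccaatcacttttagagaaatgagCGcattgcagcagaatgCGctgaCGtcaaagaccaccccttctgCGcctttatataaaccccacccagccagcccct

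Kcnq1ot1, chr7:143296548-143296797 (-): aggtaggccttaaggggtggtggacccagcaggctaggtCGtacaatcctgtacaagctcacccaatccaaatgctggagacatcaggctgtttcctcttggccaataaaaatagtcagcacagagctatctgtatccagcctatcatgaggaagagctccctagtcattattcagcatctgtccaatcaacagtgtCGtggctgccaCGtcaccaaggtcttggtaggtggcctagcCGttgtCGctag

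Airn, chr17:12741061-12741310 (+): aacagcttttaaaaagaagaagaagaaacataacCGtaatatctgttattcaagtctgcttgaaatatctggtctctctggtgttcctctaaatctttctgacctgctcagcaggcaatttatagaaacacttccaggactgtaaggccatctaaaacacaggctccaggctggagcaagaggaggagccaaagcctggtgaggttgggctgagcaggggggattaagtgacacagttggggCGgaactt

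The stretch of Meg3 holds 10 CpG dinucleotides, that of Kcnq1ot1 5 and that of Airn 2, as many as or more than in 64.4%, 49.6% and 29.0% of all promoters, and the median of the 32851 promoters in the table is 6. The letters CCAAT, on either strand, occur 3 times before Kcnq1ot1, 1 time before Meg3 and 0 times before Airn. At least 1 such match was present in 33.8% of all promoters and at least 3 in 2.79%. Of the 10 genes, 9 have an entry in that table. The letters describe the reference sequence, and nothing here measures their methylation. Meg3 has a second annotated start in the table, whose 250 bases hold 0 CpG dinucleotides and 0 matches to CCAAT.

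The Dlk1-Dio3 cluster carried no counts in any of its named genes. Meg3, on chromosome 12 from 109540996 to 109571729 (mm10, the build in the submitters' processing notes, and RefSeq spans), had 0, 0, 0 and 0 counts in P1, P2, N1 and N2. Rian, at 109603945 to 109661716, host of small nucleolar RNAs, and Mirg, at 109734981 to 109749458, host of microRNAs, were also listed at 0 in each library. The coding partner Dlk1, at 109452485 to 109463336, was listed at 0 in each library as well. Noncoding and coding partners of this cluster thus had the same listed value in both states, and their ratio is not defined. A count of 0 allows up to 3 counts, which is 0.246 CPM in P1, 0.406 in P2, 0.252 in N1 and 0.306 in N2.

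The zeros extended over the interval. Between the start of Dlk1 and the end of Dio3, a stretch of 828.6 kb, the tables have 103 rows, and 101 of them were at 0 in every library. The exceptions were pseudogenes, Gm9661 with 1 count and Gm3379 with 3 counts over the 4 libraries. All 3 coding genes were at 0 (Dlk1, Rtl1, a retrotransposon-derived gene, and Dio3, a deiodinase of thyroid hormone), as were all 16 long noncoding RNA rows. The interval has 19 small nucleolar RNA rows, all at 0, whereas 30.1% of the 1340 such rows in the tables had a count. It has 61 microRNA rows, also all at 0, against 25.8% with a count among all 1228. For coding genes the share with a count was 69.4% of 21900. Per the labels, inserts in these libraries are longer than mature microRNAs, so the microRNA rows would reflect precursors and host transcripts.

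Genes on both sides of the interval had counts. All 9 coding genes within 1000 kb upstream of Dlk1 had at least 1 count and 8 had one in every library, and all 13 within 1000 kb downstream of Dio3 had counts, 12 of them in every library. The nearest on the upstream side, Begain, had 11, 13, 9 and 10 counts in P1, P2, N1 and N2. Yy1, which encodes a zinc finger factor, had 372, 211, 366 and 261 in the same order. The nearest on the downstream side, Ppp2r5c, a subunit of protein phosphatase 2A, had 293, 137, 279 and 196. In GENCODE M21, 8.29% of the exonic bases of Meg3, 3.42% of those of Rian, 5.03% of those of Mirg and 0% of those of Dlk1 overlap an exon of another gene. The tables also list all 37 genes of the mitochondrial genome at 0. Whether rows were left out of the counting was not tested.

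**Figure D1:**
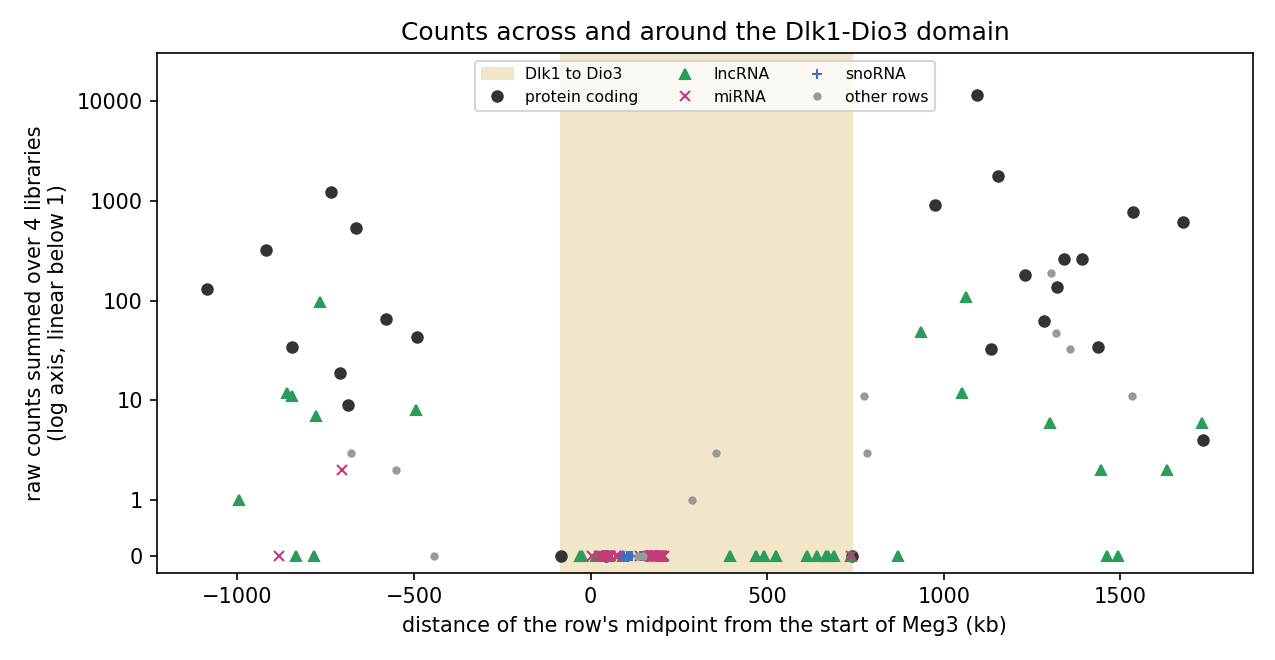
Raw counts summed over the 4 libraries (log axis, linear below 1) for each row of the tables, by the distance of its midpoint from the start of Meg3 in kb. Within the shaded stretch from Dlk1 to Dio3, 101 of 103 rows sit at 0, and the coding genes on both sides have counts.

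The microRNAs of this interval are given by examples, because their rows share the zeros of Mirg and Meg3. RefSeq lists 114 mature sequences for the 61 genes, with 104 distinct seeds, and no seed is shared by more than 2. Capitals mark the seed, bases 2 to 8. The first pair below and the second pair each share a seed.

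mmu-miR-379-5p: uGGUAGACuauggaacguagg

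mmu-miR-1193-5p: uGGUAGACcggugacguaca

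mmu-miR-376c-5p: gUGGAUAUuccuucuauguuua

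mmu-miR-376b-5p: gUGGAUAUuccuucuaugguua

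All 61 precursor rows together had 0 counts, those of the 19 mature sequences inside the span of Mirg included.

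H19 and Igf2 were both near the limit of detection. H19 (chromosome 7, 142575530 to 142578146) had 5 and 15 counts in P1 and P2 and 6 and 2 in N1 and N2, or 0.411, 2.03, 0.505 and 0.204 CPM. P2 was the highest and N2 the lowest, and since P1 was below N1 the groups overlapped. In pair 2 the neuron level was 9.96-fold lower, with a 95% exact interval of 2.32 to 89.7 that covers counting error only, and in pair 1 the ratio of neurons to proliferating cells was 1.23 (0.312 to 5.09). Igf2 (chromosome 7, 142650768 to 142666816) had 1 and 0 counts in P1 and P2 and 1 and 5 in N1 and N2, or 0.0822, 0, 0.0841 and 0.510 CPM, with only N2 above the limit that a count of 0 allows. Neither gene passed the filter, so neither was tested.

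As a share of the counts of both partners, H19 made up 83.3% in P1 (95% Clopper-Pearson interval 35.9% to 99.6%), 100% in P2 (78.2% to 100%), 85.7% in N1 (42.1% to 99.6%) and 28.6% in N2 (3.67% to 71.0%). Only N2 had more Igf2 than H19 counts, from 7 counts in all. The mean share was 91.7% ± 11.8 in proliferating cells and 57.1% ± 40.4 in neurons (SD, n = 2 each), a difference within the spread between N1 and N2. In GENCODE M21, 64.6% of the exonic bases of Igf2 overlap exons of other genes, so its reads could be split or left out by the counting, whose treatment of overlaps is not given in the sources used here. Of its listed neighbours, Igf2os and Ins2 were at 0 and Nctc1 had at most 2 counts in a library.

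Igf2r had the smallest spread between libraries of the 4 tested genes. It lies on chromosome 17 from 12682406 to 12769706 and had 515 and 229 counts in P1 and P2 and 419 and 446 in N1 and N2, or 42.3, 31.0, 35.2 and 45.5 CPM. The lowest and the highest value came from P2 and N2, and the groups overlapped. The log2 fold change in neurons was 0.14 with SE 0.45 (95% interval -0.93 to 1.20, edgeR adjusted p = 0.9998). The difference was -0.26 in pair 1 and 0.55 in pair 2 on the log2 scale. The sign of the log2 fold change depends on the scaling. With library size alone it was -0.28, while the median over all tested genes moved by -0.29. On log2(RPKM + 1) it was -0.099, while that median moved by -0.088. The sign also depends on single libraries. The log2 fold change was -0.050 without P2, -0.055 without N2, 0.345 without P1 and 0.28 without N1.

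Airn (chromosome 17, 12741311 to 12859884) had 24 and 0 counts in P1 and P2 and 21 and 10 in N1 and N2, or 1.97, 0, 1.77 and 1.02 CPM. P1 and N1 were close to each other, and with 0 in P2 and the highest value in P1 the groups overlapped. The log2 fold change was 0.41 (SE 1.25, 95% interval -2.52 to 3.35, edgeR adjusted p = 0.9998). The difference was -0.14 in pair 1 and 2.65 in pair 2, and the fit with the replicate block gave 1.00. Without P1 the log2 fold change was 6.77, a size that the counts do not fix, since P2, the only proliferating library then left, had 0. Without P2 the log2 fold change was -0.47, without N1 it was -0.044 and without N2 it was 0.77. It was -0.14 with library size alone and -0.0072 on log2(RPKM + 1). Those settings moved the median over all tested genes by -0.29 and -0.088. Relative to the median of each setting, Airn was at 0.13 and 0.057. The length behind the authors' RPKM of Airn was 7190 bases, against a RefSeq span of 118574 and 2.00 times its exonic length in GENCODE. What the authors' lengths are made of is not given in the sources used here.

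Set against its partner, Airn made up 4.45% of the counts of both genes in P1 (95% Clopper-Pearson interval 2.87% to 6.55%) and 4.77% in N1 (2.98% to 7.20%). In pair 2 it was 0% in proliferating cells (0% to 1.598%), where Igf2r had 229 counts, and 2.19% in neurons (1.06% to 3.996%). The share does not depend on library size. It can depend on GC content, by which P1 and P2 differed (described below), and that part was not tested. The odds of an Airn count in neurons against proliferating cells were 1.08 in pair 1 (95% exact interval 0.561 to 2.05), and the lower bound in pair 2 was 1.14. These intervals cover counting error between 2 libraries. Over the groups the share was 2.23% ± 3.15 in proliferating cells and 3.48% ± 1.82 in neurons (SD, n = 2 each), which differ by less than the spread between replicates. The exons of Airn and Igf2r do not overlap in GENCODE M21. The neighbours Slc22a2 and Slc22a3, organic cation transporters of the same cluster, were at 0 in all libraries.

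Kcnq1ot1 had the most counts of the 10 and a wide spread between replicates. It lies on chromosome 7 from 143213111 to 143296547 and had 1692 and 130 counts in P1 and P2 and 2245 and 651 in N1 and N2, or 139, 17.6, 189 and 66.4 CPM. P1 and N1 were both higher than P2 and N2, and within each pair the neurons were higher. The groups overlapped, at a mean of 78.3 ± 85.9 CPM for P1 and P2 and 127.6 ± 86.6 CPM for N1 and N2 (SD, n = 2 each). Its log2 fold change was 0.702 (SE 0.92, 95% interval -1.44 to 2.85, edgeR adjusted p = 0.9998). It was 0.44 in pair 1 and 1.90 in pair 2, 1.17 in the fit with the replicate block, and -0.11 without P2. With library size alone and on log2(RPKM + 1) it was 0.23. Without P1 it was 2.84, and without N1 and N2 it was -0.26 and 1.28.

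The gap between P1 and P2 was larger than the gap between the groups. Kcnq1ot1 was 7.90-fold higher in P1 than in P2 (95% exact interval 6.61 to 9.52, counting error only) and 2.85-fold higher in N1 than in N2 (2.61 to 3.11). Its transcript has 40.3% GC, in the lowest of 5 equal bins of tested genes. In that bin the median difference of P1 minus P2 was 1.16 on the log2 scale, below that of Kcnq1ot1. It was -0.62 in the bin with the most GC. With a correction for GC content the log2 fold change of Kcnq1ot1 was 0.57, and 0.71 with the replicate block added. The cell cycle markers Mki67 and Top2a were also higher in P1 than in P2, 8.49-fold and 7.62-fold. All 5 cell cycle markers were lowest in P2, with a summed level of 295 CPM in P1, 47.4 in P2, 375 in N1 and 204 in N2. The parts of GC content and of these markers in the level of Kcnq1ot1 were not tested. The other 3 tested genes, Airn with 46.5% GC, Peg3 with 46.8% and Igf2r with 51.2%, had GC-corrected log2 fold changes of 0.43, -0.18 and 0.21. P1 minus P2 was 3.48 on the log2 scale for Airn, whose bin had a median of 0.41. Peg3, in the bin of Airn, was 2.71-fold higher in P1 than in P2. For Igf2r the difference was 0.45 on the log2 scale, against a median of -0.43 in its bin.

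**Figure D2:**
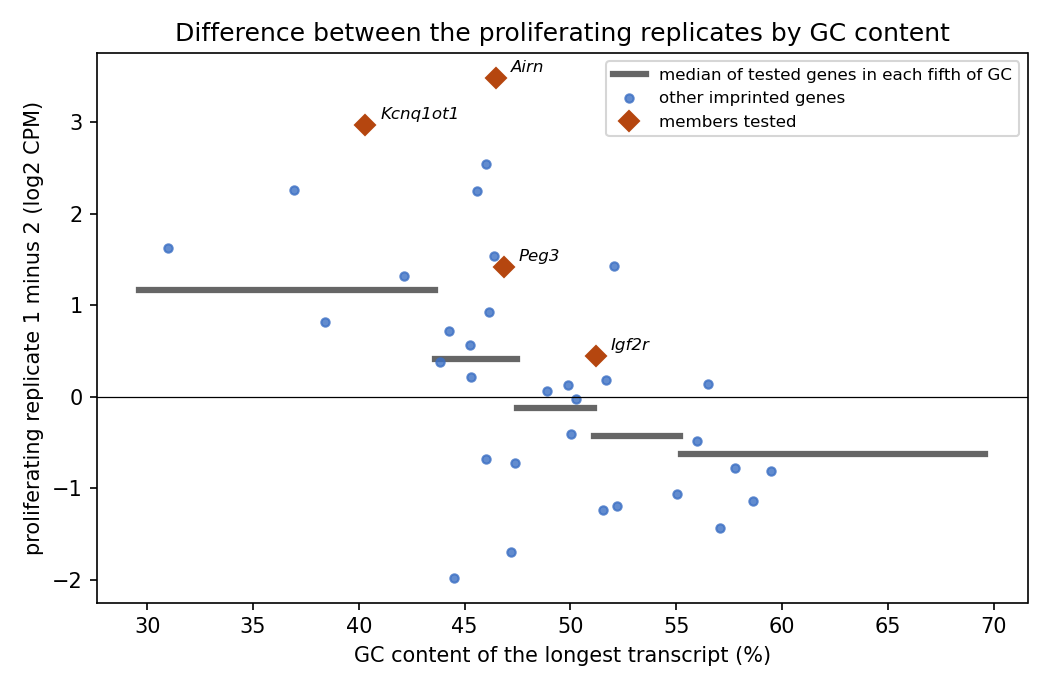
Difference of P1 minus P2 in log2 CPM against the GC content of each gene's longest GENCODE transcript; diamonds are the 4 tested genes of the 10, circles other imprinted genes, and bars the median of tested genes in each of 5 bins of GC content. All 4 diamonds lie above 0, Igf2r in a bin whose median is -0.43, and the medians fall from 1.16 to -0.62.

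The 2 coding genes paired here with Kcnq1ot1, Kcnq1 and Cdkn1c, had almost no counts. Kcnq1, a potassium channel gene, had 0 and 0 counts in P1 and P2 and 2 and 0 in N1 and N2. Cdkn1c, an inhibitor of the cell cycle, had 0 and 1 and then 0 and 0 counts. Kcnq1ot1 therefore made up at least 99.2% of the counts of either pair in every library. Its RPKM length of 83437 bases equals its span in RefSeq, and 1.2% of its exonic bases in GENCODE M21 overlap exons of Kcnq1 and 4 other genes. Whether strand was used in the counting is not given in the sources used here.

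Several genes farther out in the Kcnq1 cluster had counts in all libraries. Cd81, a membrane tetraspanin, had 480 and 295 counts in P1 and P2 and 150 and 187 in N1 and N2, or 39.4, 39.9, 12.6 and 19.1 CPM. Both neuron values lay below both proliferating values. In neurons against proliferating cells the log2 fold change was -1.33 (SE 0.47), with an edgeR p-value of 0.024 unadjusted and an adjusted p-value of 0.9998. Nap1l4, a histone chaperone, had 285, 229, 275 and 266 counts in P1, P2, N1 and N2 and a log2 fold change of -0.11 (SE 0.45). Tssc4 had 45, 49, 25 and 34 counts in the same order (log2 fold change -0.88), and Osbpl5, a lipid transfer protein gene, had 142, 78, 100 and 225 (0.49). Phlda2, a growth-restraining gene of the placenta, had 11 and 5 counts in proliferating cells and 2 and 2 in neurons, too few to be tested. Ascl2 and Slc22a18 were at 0.

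Peg3 had no noncoding partner with counts. It lies on chromosome 7 from 6703892 to 6730462 and had 250 and 56 counts in P1 and P2 and 168 and 108 in N1 and N2, or 20.5, 7.58, 14.1 and 11.0 CPM. The neuron values lay between the proliferating ones. The log2 fold change was -0.17 (SE 0.59, 95% interval -1.55 to 1.22, edgeR adjusted p = 0.9998). The difference was -0.53 in pair 1 and 0.53 in pair 2, and the log2 fold change was -0.018 in the fit with the replicate block and -0.63 with library size alone. Without P1 the log2 fold change was 0.700, without P2 it was -0.69, without N1 it was -0.39, and without N2 it was 0.0080. The antisense RNA Peg3os and the zinc finger gene Zim3 were at 0, Zim1 had 1 count in all, and Usp29, a ubiquitin protease gene that starts beside Peg3, had 10 and 0 counts in proliferating cells and 5 and 6 in neurons.

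**Figure D3:**
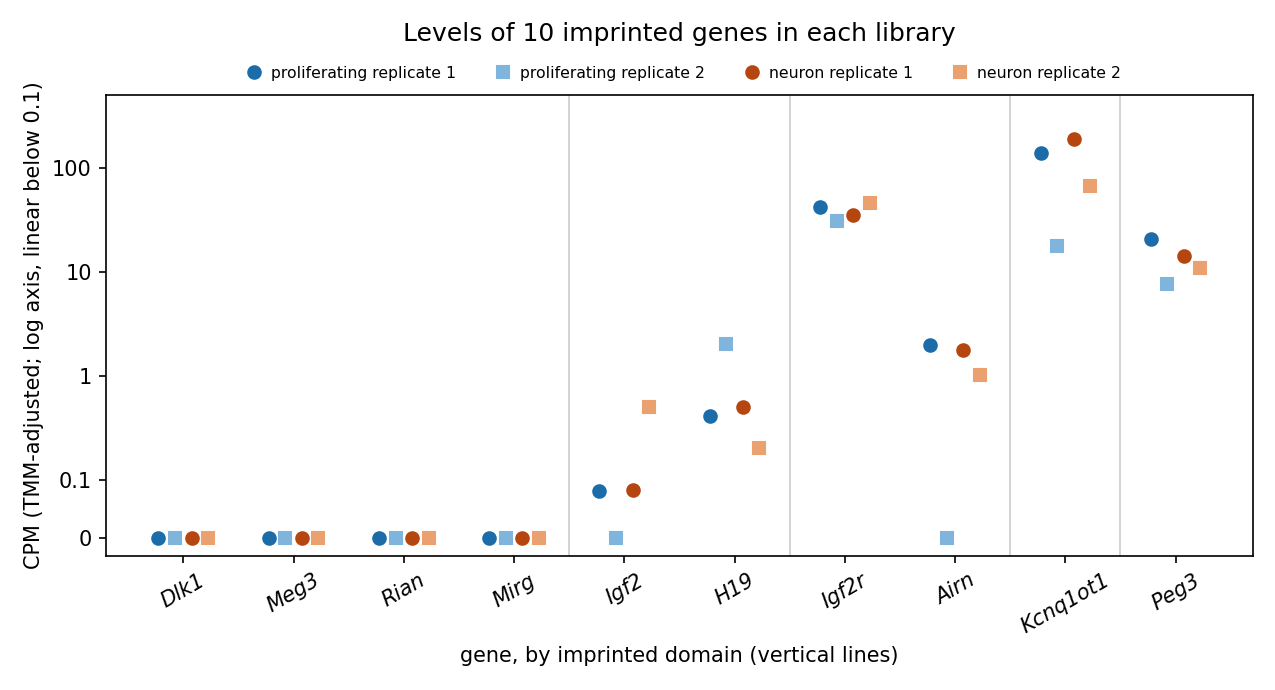
CPM of the 10 genes in each of the 4 libraries (log axis, linear below 0.1), grouped by imprinted cluster; circles are replicate 1 and squares replicate 2. Dlk1, Meg3, Rian and Mirg lie at 0, Airn is at 0 in P2, and Kcnq1ot1 spans 17.6 to 189 CPM.

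Per length the order of the genes changes. Levels per kb of exon in GENCODE were used, because the lengths behind the authors' RPKM values exceed the exonic length of Peg3 5.43-fold and that of Igf2 4.48-fold. Igf2r was highest in every library, at 4.55, 3.33, 3.79 and 4.88 CPM per kb in P1, P2, N1 and N2. Kcnq1ot1, at 1.49, 0.189, 2.03 and 0.713, and Peg3, at 1.54, 0.569, 1.06 and 0.826, overlapped, with Kcnq1ot1 the lower in P1, P2 and N2 and the higher in N1. Airn lay below both, at 0.283 to 0.548 in 3 libraries and at 0 in P2. H19 had 0.0829 to 0.825 CPM per kb, overlapped Airn and in P2 lay above Peg3 and Kcnq1ot1, and Igf2 had at most 0.0891.

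No member was called different between neurons and proliferating cells. In edgeR's quasi-likelihood test over 12783 genes, 0 of the 4 tested members were called at an adjusted p-value under 0.05, and 0% of all tested genes were called higher and 0% lower. DESeq2, which gave Airn no adjusted p, called none of the other 3, against 0.104% of genes called higher and 0.416% called lower, and the fit with the replicate block called none of the 4, against 0% and 0.0235%. No member had an unadjusted p-value under 0.05, against 0.915% of all tested genes higher and 2.51% lower. The groups did not overlap for 0 of the 4, against 12.9% of tested genes that were higher and 14.5% that were lower in neurons without overlap. Airn, Igf2r and Peg3 were lower in neurons in pair 1 and higher in pair 2, a pattern that 24.5% of tested genes had. Kcnq1ot1 was the exception, higher in both pairs, as were 28.8% of tested genes, while 25.5% were lower in both. All 4 had their lowest CPM in P2, as did 37.8% of tested genes. Fewer cells of a type and less RNA per cell cannot be told apart in such bulk libraries.

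Other imprinted genes gave the setting for the 10. Of 66 listed, 64 are in the tables, 20 of these were at 0 throughout and 31 were tested, 14 with a higher and 17 with a lower fitted value in neurons and 0 called. Their median log2 fold change was -0.11, against 0.024 over all tested genes, and it was -0.29 in pair 1 and 0.16 in pair 2. With the GC correction it was -0.24, on log2(RPKM + 0.1) it was -0.29, and with the replicate block it was -0.069. Relative to the median of all tested genes it was -0.138 in the edgeR test. In those other settings, in the same order, it was -0.259, -0.141 and -0.116. Snrpn and Snurf, which share exons (34.1% of the exonic bases of Snrpn overlap other genes in GENCODE), were both listed at 0, while their neighbours Ube3a, a ubiquitin ligase, and Snhg14, the noncoding RNA antisense to it, had counts. Ube3a had 1061 and 133 counts in P1 and P2 and 1047 and 740 in N1 and N2. Snhg14 had 61 and 11 and then 59 and 28. Both genes had their lowest CPM in P2, as had 12 of the 31 tested genes of this list and 37.8% of all tested genes. Their transcripts have 36.9% and 31.0% GC, in the lowest of the 5 bins, like that of Kcnq1ot1.

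Peg10, a retrotransposon-derived gene expressed from the paternal copy, had the lowest unadjusted p-value of the list. It had 528 and 1043 counts in P1 and P2 and 297 and 226 in N1 and N2, or 43.4, 141, 25.0 and 23.0 CPM. Both neuron libraries were below both proliferating ones. Its log2 fold change was -1.94 (SE 0.63), with an edgeR p-value of 0.017 unadjusted and an adjusted p-value of 0.9998. Atp10a, a phospholipid flippase gene, had 64 and 34 counts and then 33 and 12, with a log2 fold change of -1.29 (SE 0.61). Sfmbt2, a Polycomb-related gene, went the other way, with 21 and 1 counts and then 45 and 24, and a log2 fold change of 1.65 (SE 0.95). Mest, the paternally expressed gene farthest to the left in the plot of pair differences, had 50 and 51 counts and then 5 and 34, with a log2 fold change of -1.51 (SE 0.89). Each of these 3 had an edgeR adjusted p-value of 0.9998.

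**Figure D4:**
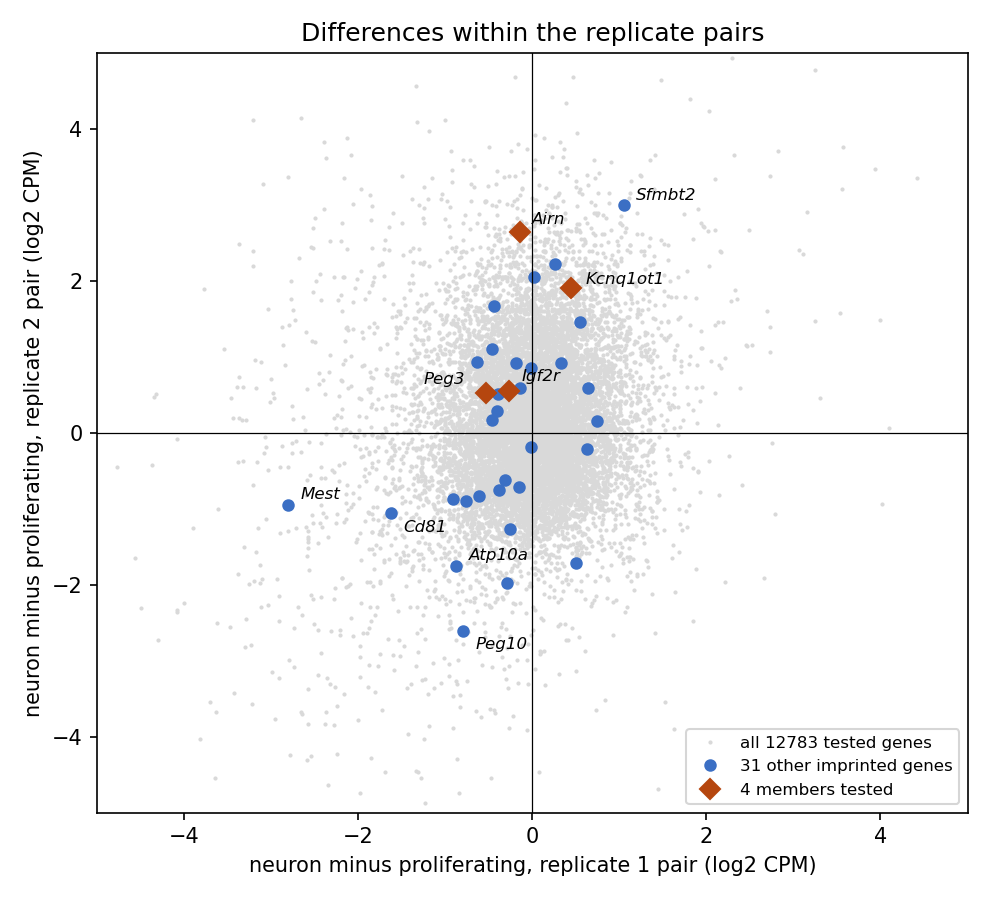
Difference of neurons minus proliferating cells in log2 CPM within pair 1 (horizontal axis) and pair 2 (vertical axis); small points are the tested genes, circles 31 other imprinted genes and diamonds the 4 tested genes of the 10, and 29 genes lie outside the axes. Airn, Igf2r and Peg3 lie left of 0 and above 0, and Kcnq1ot1 is positive in both pairs.

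Of 8 factors that keep imprints 6 were tested, 4 with a higher and 2 with a lower fitted value and 0 called. Their median log2 fold change was 0.25, against 0.024 over all tested genes. Zfp57, a zinc finger protein that binds methylated control regions, had 4 and 8 counts in P1 and P2 and 29 and 44 in N1 and N2, or 0.329, 1.08, 2.44 and 4.49 CPM. Both neuron values were above both proliferating values. In neurons against proliferating cells the log2 fold change was 2.34 (SE 0.81), with an edgeR p-value of 0.022 unadjusted and an adjusted p-value of 0.9998. Its partner Trim28, a corepressor, had 889, 943, 962 and 834 counts in P1, P2, N1 and N2 and a log2 fold change of -0.27 (SE 0.47). Dnmt1, the maintenance DNA methyltransferase, had 850, 515, 800 and 591, with a log2 fold change of -0.13 (SE 0.43). Ctcf, an insulator protein that binds the control region of H19 and Igf2, had 205, 102, 243 and 151, with a log2 fold change of 0.22. Dppa3, a germline factor, was at 0.

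Genes that act on IGF2 had counts although Igf2 itself had few. Of 11 listed, 10 were tested, 6 with a higher and 4 with a lower fitted value and 0 called, with a median log2 fold change of 0.18. Igf1r, the receptor that signals for IGF2, had 665 and 246 counts in P1 and P2 and 742 and 530 in N1 and N2, with a log2 fold change of 0.404 (SE 0.47). Igfbp3, a binding protein of IGF ligands, had 33 and 198 counts and then 16 and 16. Its log2 fold change was -3.29 (SE 1.02), with an edgeR p-value of 0.013 unadjusted and an adjusted p-value of 0.9998, and the difference was -0.92 in pair 1 and -3.89 in pair 2. Irs2, an adaptor of the insulin and IGF receptors, had 212 and 205 and then 166 and 110 counts (log2 fold change -0.84), and Igfbp5, another binding protein, had 251 and 80 and then 260 and 237 (0.54). Igf2bp1, an RNA-binding protein gene, was at 0.

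Markers of other cell types were also read. The 7 markers of mesenchyme, a tissue in which H19 and Igf2 are abundant, had Col1a2 and Postn at 0 and summed to 7.95 to 17.9 CPM, mostly Pdgfra. The 4 endothelial markers summed to at most 1.22 CPM. The 6 glial markers summed to 66.9 and 61.7 CPM in P1 and P2 and 20.7 and 2.04 in N1 and N2. These sums came from different genes. Gfap had 181 and 89 counts in P1 and P2 and 1 and 2 in N1 and N2. Its log2 fold change was -6.47, with an edgeR adjusted p-value of 0.11, the smallest of all tested genes. Fabp7 had 22.3 and 49.0 CPM and then 17.7 and 0.917, and Aqp4 had 29.2 and 0.271 and then 2.61 and 0.510. Of 4 hair cell markers, Pou4f3 was at 0 and the sums were 0.0841 to 9.68 CPM. Their part in the levels of the 10 genes was not tested.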

How the data were processed

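RNA of 2 proliferating and 2 neuron cultures was sequenced, and the authors deposited raw counts and RPKM values per gene for each library. Per the submitters' processing notes the build was mm10 and the tools were HISAT2, SAMtools, featureCounts, DESeq2 and deepTools 3.4.3, with no role stated. The annotation and the use of strand are not given in the sources used here. The length that the authors used for each gene was computed from its deposited count and RPKM. GENCODE M21 gave exonic lengths, overlaps and GC content. All 49997 symbols matched RefSeq on GRCm38.p6.

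The test was edgeR 4.0.16 (R 4.3.3): TMM, filterByExpr (minimum count 10, total 15), glmQLFit and glmQLFTest, Benjamini-Hochberg over 12783 genes, two-sided, group as the only term. Pair differences are log2 CPM with a prior count of 2. Exact permutation of 2 against 2 cannot go below p = 0.333, so none was run. Same-numbered libraries share the words set 2 or their absence, and their deviations correlated with r = 0.33 across genes. Alternatives were other scalings, filters, DESeq2 1.42.0, limma 3.58.1 on log2(RPKM + 1) and log2(RPKM + 0.1), no 18S row, the replicate block, each library left out and, added later, a GC correction (lowess span 0.3). A check on simulated data used changes far larger than the fitted ones of the tested members, and libraries drawn independently without a GC trend. It says nothing about how well changes of the members' size would be found. Counts have no molecular identifiers. The exact and Clopper-Pearson intervals cover counting error only, whereas the edgeR intervals include the spread between libraries.

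The 10 genes and all lists were chosen with earlier results of these data known. All 10 were to be named, with, from each list, up to 4 tested genes of the same direction in both pairs with the lowest p, listed neighbours in a member's cluster, and the genes most like Meg3 in pattern, which could not be found since Meg3 was at 0. Among the markers, Sox9, Hes1, Map2, Elavl4, Cdk1 and Ccna2 met this rule but are not described. Mest, Ube3a, Snhg14, Snrpn, Snurf, Mki67, Top2a, Trim28, Dppa3, Igf2bp1 and the flanking genes of the Dlk1-Dio3 interval were chosen after their values were seen. Also named outside the rule were the markers Pax2, Nefm, Tubb3, Neurod1, Pdgfra, Col1a2, Postn, Aqp4 and Pou4f3.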

Additional observations from a re-analysis of the deposited data

How the results depend on the processing

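Genes called higher or lower were 0 and 0 in the edgeR test (117 and 321 at an unadjusted p-value under 0.05), and also with RLE size factors, the 18S row left out, the filter on CPM and the GC correction. Other settings called 12 higher and 48 lower (DESeq2), 41 and 122 (no gene filter), 0 and 3 (replicate block), 23 and 70 (GC correction with the replicate block), 0 and 2 (library size alone), 0 and 1 (log2(RPKM + 1)) and 0 and 2 (log2(RPKM + 0.1)). With 1 library left out, 3 to 29 were called higher and 11 to 84 lower, where the lone library is assumed to vary like the others. None of the 4 tested members was called under any of these, and the replicate block changed no call of theirs. DESeq2 gave Airn no adjusted p.

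Signs of the members depended on single libraries and on the scaling. Library size alone moves the median of all genes by -0.29, log2(RPKM + 1) by -0.088 and log2(RPKM + 0.1) by -0.17. The log2 fold change of Airn was -0.14 with library size alone, -0.0072 with log2(RPKM + 1), -0.47 without P2 and -0.044 without N1. That of Igf2r was -0.28 with library size alone, -0.099 with log2(RPKM + 1), -0.085 with log2(RPKM + 0.1), -0.050 without P2 and -0.055 without N2. That of Kcnq1ot1 was -0.11 without P2 and -0.26 without N1, and that of Peg3 was 0.700 without P1 and 0.0080 without N2. The median of the other imprinted genes was -0.502 with library size alone, and -0.39 to -0.060 with 1 library left out. The change in the share of H19 in its pair with Igf2 was -34.5 percentage points (-29.0 with 1 count added), and that of Airn with Igf2r 1.26 (1.16). They were -63.1 to -5.95 and -0.97 to 3.48 with 1 library left out. The cause was not tested. Reversals aside, the log2 fold change without P1 was 6.77 for Airn, 0.345 for Igf2r and 2.84 for Kcnq1ot1. The value of Airn rests on its count of 0 in P2, the only proliferating library then left. The log2 fold change of Peg3 without P2 was -0.69. The difference of the fitted log2 fold changes of Airn and Igf2r was 0.28, and H19 and Igf2 did not pass the filter. Depth limits H19, Igf2 and Airn, with at most 24 counts in a library.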
